A study of Mus musculus with 8 samples.

Results

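Il10, the gene of the anti-inflammatory cytokine IL-10, was examined together with 5 genes of transcription factors known to control it: Maf, Ahr, Prdm1, Nfil3 and Bhlhe40. Members were taken by symbol from the array's probe annotation, and all 6 of the listed genes were found, with 12 probe sets, among 18193 genes on the array. The set was chosen by the measured log2 values of Il10 in these arrays, which were higher in RORγt-deficient cells and, in wildtype cells, under digoxin. The differences of Il10 are therefore given as a description with no test. The values of the regulators were open to view as well, so their calls describe these arrays and are no independent evidence about the set.

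The data were 8 arrays of naive CD4 T cells from C57BL/6 mice, sorted by flow cytometry and grown on antibodies against CD3 and CD28 for 48 h in Th17 culture. There were 4 groups of 2 arrays: wildtype cells with DMSO, the solvent control, wildtype cells with digoxin, RORγt-deficient cells with DMSO, and RORγt-deficient cells with digoxin. RORγt, a nuclear receptor, drives the Th17 program, and digoxin is a cardiac glycoside that the series title names as an antagonist of its activity. Each title says biological replicate without naming an animal or culture, and the allele behind the deficiency and the digoxin dose are not given in the sources used here. Therefore p-values measure the spread between arrays, which may be partly technical. No check of the genotype labels through the targeted gene was made here.

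IL-10 restrains inflammation, and many helper T cells, Th17 cells among them, can make it. Its gene has no single master regulator. The leucine zipper factor c-Maf, encoded by Maf, binds and activates Il10 in several helper subsets, and the aryl hydrocarbon receptor, a ligand-activated factor encoded by Ahr, is known to act with it. Blimp-1, encoded by Prdm1, and the leucine zipper protein encoded by Nfil3 are further activators, whereas the protein encoded by Bhlhe40 is known as a repressor of Il10 in T cells.

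Every value was on the log2 scale and relative to the 2 wildtype DMSO arrays, whose mean is 0 in each probe set, and levels cannot be compared between genes. Errors after ± are limma standard errors (SE) (n = 2 arrays a group) unless marked as SD, and a probe set was called at a limma adjusted p under 0.05 over all 45037 probe sets. On the arrays, T cell markers (Cd3e, Cd3d, Cd3g, Cd4 and Cd28) had an uncentred level of 8 or above for all 7 of their probe sets, a range read from the precision of the deposited numbers.

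Il10 was at its lowest in wildtype DMSO and stood 2.5 to 2.7 times higher in the other 3 groups. Its probe set, 1450330_at, read 0.03 and -0.03 on the wildtype DMSO arrays and 1.46 and 1.20 on the wildtype digoxin arrays. The RORγt-deficient arrays read 1.63 and 1.26 in DMSO and 1.46 and 1.41 in digoxin. Both wildtype DMSO arrays lay below all 6 others, and the other 3 groups overlapped one another. The share of all probe sets with wildtype DMSO below all other arrays was not counted. In comparisons of single groups with wildtype DMSO, 20.2% of all probe sets were higher without overlap in RORγt deficiency with DMSO. With digoxin in wildtype cells the share was 18.7%.

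RORγt deficiency in DMSO was accompanied by 2.72-fold higher Il10 (1.45 ± 0.14), and digoxin in wildtype cells by 2.51-fold higher Il10 (1.33 ± 0.14). These differences share the wildtype DMSO arrays. In RORγt-deficient cells digoxin moved Il10 by -0.01 ± 0.14, with a 95% interval from -0.33 to 0.31. Under digoxin the RORγt-deficient cells stood 0.10 ± 0.14 above wildtype (interval -0.22 to 0.42). The order of the group means was wildtype DMSO (0.00 ± 0.04, SD), wildtype digoxin (1.33 ± 0.18), RORγt-deficient digoxin (1.43 ± 0.03) and RORγt-deficient DMSO (1.45 ± 0.26). The neighbours among the upper 3 did not differ beyond their spread. The digoxin difference in RORγt-deficient cells was lower than that in wildtype cells by 1.34 on the log2 scale (-1.34 ± 0.20), a value built from the same contrasts that drew attention to Il10. Limma called 0% of all probe sets for this difference. The errors and intervals of Il10 are descriptions and no test. In a bulk sample, more cells that make Il10 and more RNA per cell cannot be told apart.

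**Figure D1:**
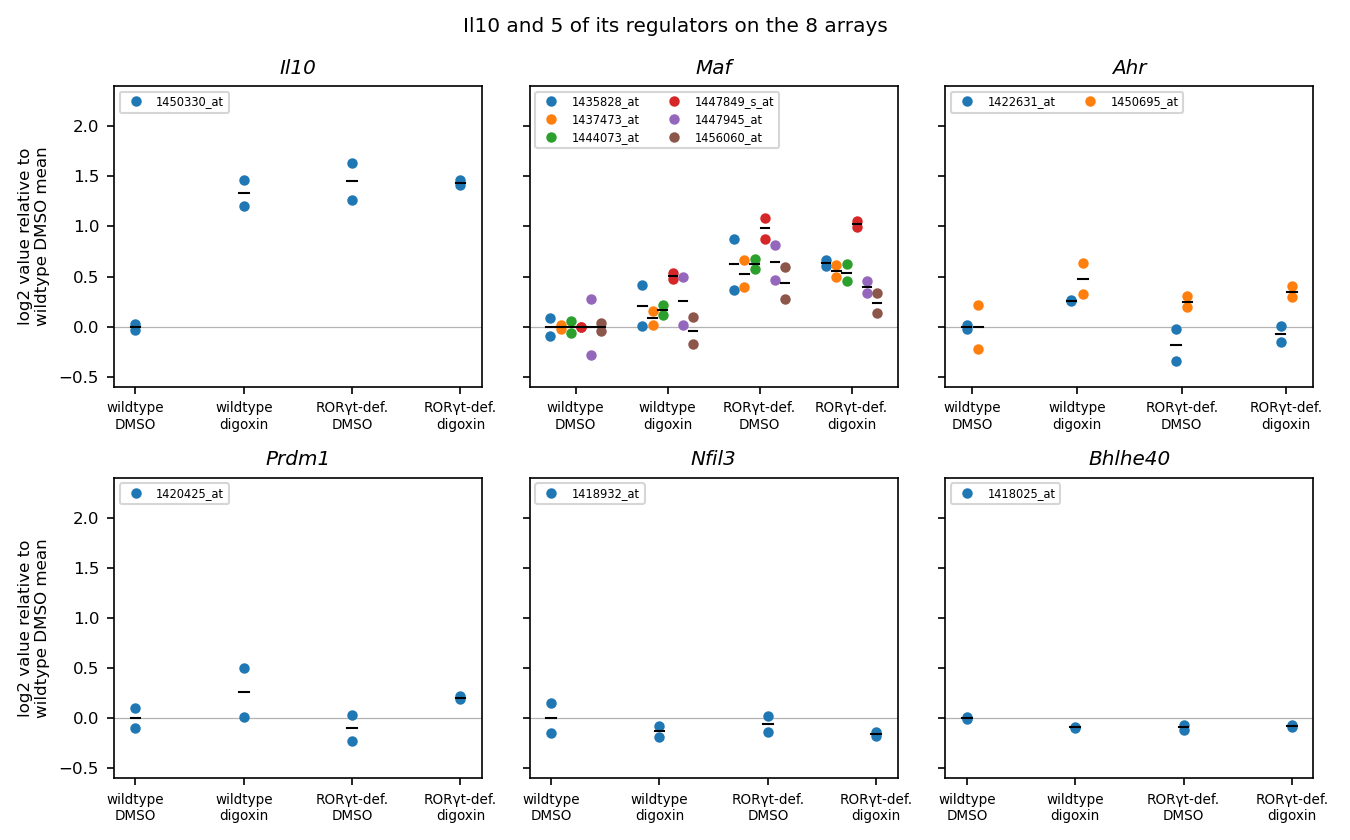
Log2 values relative to the wildtype DMSO mean (vertical axis) for the 12 probe sets of the 6 genes, by group (horizontal axis); points are arrays, n = 2 per group, colours are probe sets and black bars are group means. Il10 sits between 1.20 and 1.63 outside wildtype DMSO, Maf is highest in the RORγt-deficient groups, and Prdm1, Nfil3 and Bhlhe40 stay between -0.23 and 0.50.

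The 5 regulators were read by 11 probe sets. In RORγt deficiency with DMSO, limma called 1 of them, against 0.611% of all probe sets tested, and 6 had an unadjusted p under 0.05, against 9.06%. All 6, and the 1 called, were probe sets of Maf, which has 6 of the 11 and so weighs heavily in every count here. The median of the 11 was 0.44, itself a Maf value, beside 0.01 over all probe sets. Probe sets of the other regulators stood from -0.18 to 0.25 in that comparison. Digoxin in wildtype cells left 0 of the 11 called by limma, with 2 at an unadjusted p under 0.05, and the median of the 11 was 0.21. Over all probe sets 0.0622% were called and 6.26% had an unadjusted p under 0.05. For RORγt deficiency under digoxin the count was also 0 of 11, with 5 at an unadjusted p under 0.05, against 0.00222% and 4.77% of all probe sets. Digoxin in RORγt-deficient cells gave 0 of 11 by limma at either threshold, against 0.00222% and 3.41%. The difference between the digoxin effects gave 0 of 11 called by limma and 1 at an unadjusted p under 0.05, against 0% and 2.78%. Nothing is read from these shares, since the set was chosen with the contrasts known.

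Maf was the regulator that stood apart in RORγt deficiency. All 6 of its probe sets were higher in RORγt-deficient cells than in wildtype cells in DMSO, by 0.44 to 0.98, and in each the 2 groups did not overlap. Of all probe sets, 20.2% were higher without overlap in that comparison. The 6 probe sets read the same gene on the same arrays and are not replicates.

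The largest Maf difference was that of 1447849_s_at, one of the Affymetrix probe sets whose suffix marks probes that can match more than 1 transcript. In wildtype cells it read 0.00 on both DMSO arrays and 0.48 and 0.54 with digoxin; in RORγt-deficient cells it read 1.08 and 0.87 with DMSO and 1.05 and 0.99 with digoxin. The arrays thus fell into 3 steps, with wildtype digoxin between wildtype DMSO and both RORγt-deficient groups and no overlap between the steps. How many of all probe sets show such steps was not counted. This probe set rose 1.97-fold in RORγt deficiency (0.98 ± 0.11, limma adjusted p = 0.00769). The call was lost when either wildtype DMSO array was left out (adjusted p = 0.0767 for array 1 and 0.101 for array 2) or the first RORγt-deficient DMSO array (adjusted p = 0.0521), and over all alternatives its limma adjusted p ranged from 0.00287 to 0.17.

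The other 5 Maf probe sets were not called. The nearest was 1444073_at, at -0.06 and 0.06 (DMSO) and 0.22 and 0.12 (digoxin) in wildtype cells and at 0.67 and 0.57 (DMSO) and 0.62 and 0.46 (digoxin) in RORγt-deficient cells. Its difference in RORγt deficiency was 0.62 ± 0.11 (limma adjusted p = 0.0513). Both RORγt-deficient groups lay above both wildtype groups, an order whose share over all probe sets was not counted. With 1437473_at the difference was 0.53 ± 0.12, with 1435828_at 0.62 ± 0.18, with 1447945_at 0.64 ± 0.21 and with 1456060_at 0.44 ± 0.15, at limma adjusted p from 0.126 to 0.354. Of these 4, 1447945_at had the widest spread, with wildtype DMSO arrays at -0.28 and 0.28. Where a gene is represented by 1 probe set by suffix and identifier, 1435828_at stands for Maf, and Maf is then not called.

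With digoxin in wildtype cells 5 of the 6 Maf probe sets were higher, as was Il10, and no Maf probe set was called. They ranged from -0.04 to 0.51, with a median of 0.19, and 2 of 6 were higher without overlap, against 18.7% of all probe sets. The highest was again 1447849_s_at, at 0.51 ± 0.11 (limma adjusted p = 0.301), and the lowest 1456060_at, at -0.04 ± 0.15. Between the genotypes under digoxin all 6 Maf probe sets were higher in RORγt-deficient cells, by 0.14 to 0.51, and 5 had groups without overlap, against 16.8% of all probe sets that were higher without overlap. None was called (limma adjusted p from 0.52 upward). In RORγt-deficient cells digoxin moved them by -0.24 to 0.05. In wildtype digoxin Il10 had a mean of 1.33 and the 6 Maf probe sets had means from -0.04 to 0.51; the difference between the genes was not tested.

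**Figure D2:**
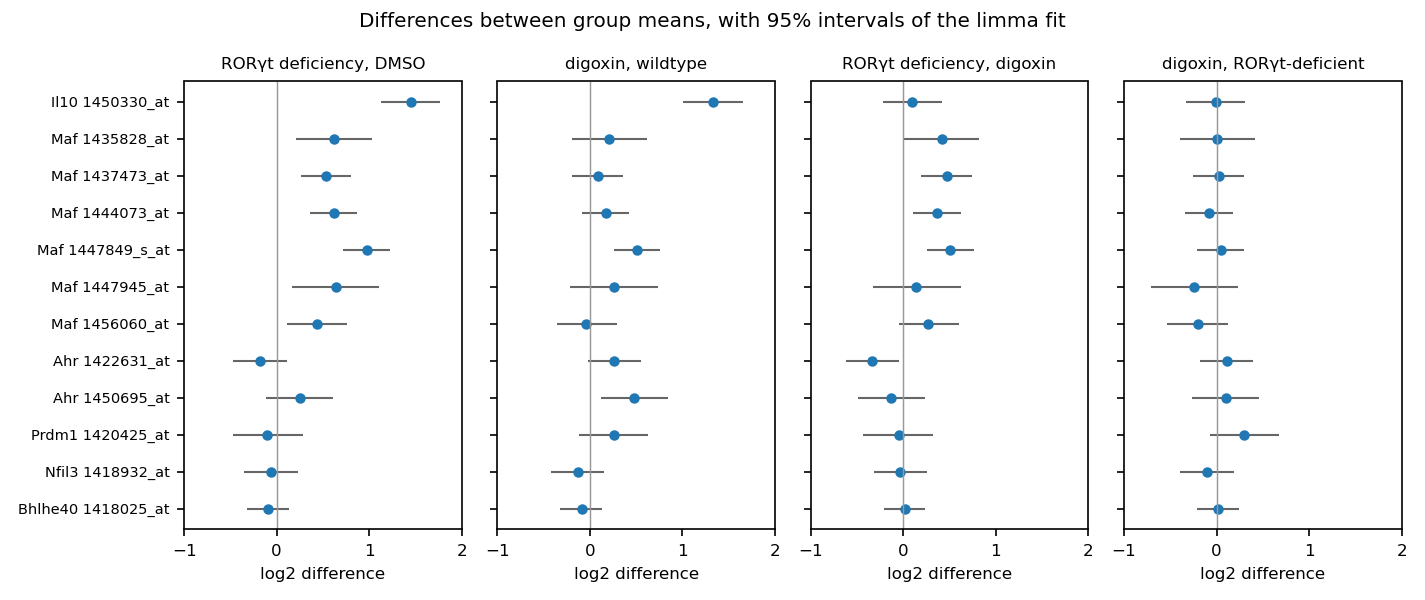
Log2 differences between group means (horizontal axis) for each probe set of the 6 genes (vertical axis), in 4 comparisons; points are limma estimates and bars their 95% intervals, n = 2 arrays per group. For Maf the estimates run from 0.44 to 0.98 in RORγt deficiency with DMSO and from -0.04 to 0.51 for digoxin in wildtype cells, while Il10 stands at 1.45 and 1.33. The Il10 intervals are descriptions and no test, because its values led to the choice of the set.

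Ahr, the sensor of dietary and microbial ligands that Th17 cells carry in quantity, was read by 2 probe sets. Their differences in RORγt deficiency had opposite signs, with 95% intervals that both included 0. The brighter one, 1422631_at, whose uncentred level was at least 8, read -0.02 and 0.02 with DMSO and 0.27 and 0.26 with digoxin in wildtype cells. In RORγt-deficient cells it read -0.02 and -0.34 with DMSO and 0.01 and -0.15 with digoxin. Both wildtype digoxin arrays lay above the 6 others, an order whose share over all probe sets was not counted. Against wildtype DMSO alone, 18.7% of all probe sets were higher with digoxin without overlap. The dimmer one, 1450695_at, read -0.22 and 0.22, then 0.33 and 0.63, then 0.20 and 0.31, then 0.41 and 0.30 over these groups in turn.

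RORγt deficiency in DMSO moved 1422631_at by -0.18 ± 0.13 and 1450695_at by 0.25 ± 0.16. The 95% intervals, from -0.47 to 0.11 and from -0.11 to 0.61, overlapped. Digoxin in wildtype cells moved these probe sets by 0.26 ± 0.13 and 0.48 ± 0.16, which share a direction. None of these differences was called (limma adjusted p from 0.677 to 0.802). Under digoxin the RORγt-deficient cells stood 0.34 lower than wildtype for 1422631_at (-0.34 ± 0.13) and 0.13 lower for 1450695_at (-0.13 ± 0.16), both uncalled.

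The partners and targets of the aryl hydrocarbon receptor (Arnt, Ahrr, Cyp1a1, Cyp1b1, Tiparp and Nqo1) were read by 14 probe sets. Limma called 0 of them in RORγt deficiency, with 1 at an unadjusted p under 0.05, and 0 for digoxin in wildtype cells, with 0 at an unadjusted p under 0.05, beside 9.06% and 6.26% of all probe sets at that unadjusted threshold. Their medians were 0.07 and 0.09. Cyp1a1, the cytochrome gene most used as a readout of this receptor, stood at -0.12 ± 0.12 and 0.06 ± 0.12.

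Prdm1 was read by 1 probe set, 1420425_at, which lay in the dimmest range, an uncentred level between 2 and 4 on its lowest array, as did 33.7% of all probe sets. Wildtype cells had values of -0.10 and 0.10 with DMSO and 0.01 and 0.50 with digoxin, and RORγt-deficient cells 0.03 and -0.23 with DMSO and 0.19 and 0.22 with digoxin. The high value of 1 wildtype digoxin array set the mean of that group. RORγt deficiency moved it by -0.10 ± 0.17, digoxin in wildtype cells by 0.26 ± 0.17 and digoxin in RORγt-deficient cells by 0.30 ± 0.17, with none called. At this signal the 95% interval for RORγt deficiency still reached from -0.47 to 0.28.

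Among genes that Blimp-1 is known to repress in lymphocytes, 6 were measured with 9 probe sets (Bcl6, Il2, Ccr7, Id3, Myc and Ciita). Ccr7, the homing receptor for lymph nodes, rose in RORγt deficiency (0.58 ± 0.10, limma adjusted p = 0.0405), a call lost without any 1 of the 8 arrays (adjusted p from 0.0547 to 0.33), while over all alternatives the limma adjusted p ran from 0.0198 to 0.53. No other probe set of this list was called. Il2, the T cell growth factor gene, went the other way, at -0.50 ± 0.11 in RORγt deficiency and -0.64 ± 0.11 with digoxin in wildtype cells (limma adjusted p = 0.1 and 0.101). The list's median was 0.08 in RORγt deficiency, where limma called 1 of 9 (background 0.611%) and 3 had an unadjusted p under 0.05 (background 9.06%). It was -0.01 for digoxin in wildtype cells, where 0 were called by limma (background 0.0622%) and 4 had an unadjusted p under 0.05 (background 6.26%).

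Nfil3 hardly varied. Its probe set 1418932_at read 0.15 and -0.15 with DMSO and -0.08 and -0.19 with digoxin in wildtype cells, and 0.02 and -0.14 with DMSO and -0.18 and -0.14 with digoxin in RORγt-deficient cells. The wildtype DMSO arrays spanned nearly the whole range of the 8. RORγt deficiency moved it by -0.06 ± 0.13 and digoxin in wildtype cells by -0.13 ± 0.13, with 95% intervals from -0.35 to 0.23 and from -0.42 to 0.15.

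Bhlhe40, the repressor, was the steadiest member. Probe set 1418025_at read 0.01 and -0.01 with DMSO and -0.10 and -0.09 with digoxin in wildtype cells, and -0.12 and -0.07 with DMSO and -0.07 and -0.09 with digoxin in RORγt-deficient cells. All 6 arrays outside wildtype DMSO lay slightly below both of its arrays. The share of all probe sets with that order was not counted, so nothing is read from it. The differences were -0.09 ± 0.10 for RORγt deficiency and -0.09 ± 0.10 for digoxin in wildtype cells, with 95% intervals from -0.32 to 0.13 in both cases, and neither was called. Csf2, the GM-CSF gene known to depend on Bhlhe40 in T cells, stood at -0.52 ± 0.12 and -0.84 ± 0.12 (limma adjusted p = 0.145 and 0.0652). Ifng, the other gene of that list, stood at -0.06 and -0.03 by a probe set in the dimmest range.

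Of the 6 genes, Prdm1 and Nfil3 had a promoter window in the RefSeq table of GRCm38.p6, and the 250 bases before the annotated start are shown because they are the regulatory sequence next to the start of these members. The windows were searched on both strands for AGGTCA, the core that ROR receptors bind, for GCGTG, the core of the aryl hydrocarbon receptor's site, and for TGCTGA, the core of the Maf site, none of which overlapped another in a match. Capitals mark every match, printed as it reads on the gene's strand.
Nfil3, chr13:52981040-52981289, minus strand: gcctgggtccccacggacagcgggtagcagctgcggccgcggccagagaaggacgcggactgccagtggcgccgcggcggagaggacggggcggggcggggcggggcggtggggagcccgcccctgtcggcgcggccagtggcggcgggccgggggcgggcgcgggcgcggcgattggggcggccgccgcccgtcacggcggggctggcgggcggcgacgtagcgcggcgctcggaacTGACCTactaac
Prdm1, chr10:44458749-44458998, minus strand: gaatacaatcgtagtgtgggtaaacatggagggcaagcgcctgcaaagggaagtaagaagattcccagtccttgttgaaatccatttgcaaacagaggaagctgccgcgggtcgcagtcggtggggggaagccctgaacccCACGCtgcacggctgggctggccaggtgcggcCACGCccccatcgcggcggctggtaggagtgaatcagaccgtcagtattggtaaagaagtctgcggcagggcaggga
The Nfil3 window held AGGTCA once, on the opposite strand, from 12 to 7 bases before the start, and 14% of all 32851 windows held this core. The Prdm1 window held GCGTG at 2 places on the opposite strand, from 109 to 105 and from 77 to 73 bases before the start, and 28.2% of all windows held it. Neither window held TGCTGA, which 16.1% of all windows did. GC content was 81.6% in the Nfil3 window and 59.2% in that of Prdm1, beside a median of 52.4% over all windows. A match of these letters is not a measured binding site.

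The 9 gene lists on Il10 and its regulators, those of Ahr, Blimp-1 and Bhlhe40 above among them, held 56 measured genes and 105 probe sets. In RORγt deficiency limma called 2 of them (1.9%, background 0.611%), both higher, Ccr7 and Il12rb2, and 16 had an unadjusted p under 0.05 (background 9.06%). Il12rb2, a subunit of the IL-12 receptor, stood 1.65-fold higher (0.72 ± 0.13, limma adjusted p = 0.0432); the call was lost without any 1 of the 8 arrays (adjusted p from 0.0548 to 0.36), and over all alternatives the limma adjusted p ran from 0.024 to 0.556. For digoxin in wildtype cells 0 of 105 were called by limma (background 0.0622%), with 17 at an unadjusted p under 0.05 (background 6.26%), and Il12rb2 stood at 0.55 ± 0.13 (limma adjusted p = 0.383).

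Genes of the IL-10 receptor and its signalling chain (Il10ra, Il10rb, Jak1, Tyk2, Stat3, Socs3 and Bcl3) had medians of 0.06 in RORγt deficiency and 0.02 for digoxin in wildtype cells over 18 probe sets. Limma called 0 in both (background 0.611% and 0.0622%), with 3 and 1 at an unadjusted p under 0.05 (background 9.06% and 6.26%). Socs3, the feedback inhibitor that STAT3 induces, stood at 0.30 to 0.35 over its 3 probe sets in RORγt deficiency and at 0.03 to 0.31 with digoxin. Stat3 itself ranged from -0.18 to 0.07 and from -0.18 to -0.04 over 4 probe sets.

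Receptors and costimulators whose signals are known to raise Il10 in T cells had medians of 0.12 and 0.05 over 23 probe sets in these 2 comparisons. Il12rb2 in RORγt deficiency was the only one called (background 0.611% and 0.0622%). Of the 23, 3 and 5 had an unadjusted limma p under 0.05 (background 9.06% and 6.26%). Other transcription factors known at Il10 (Stat4, Irf4, Batf, Jun, Junb, Fosl2, Egr2, Gata3, Ets1, Fli1, Id2, Runx1 and Bcl6) had medians of -0.02 and -0.08 over 29 probe sets. Of these, 0 were called by limma (background 0.611% and 0.0622%), and 1 and 5 had an unadjusted p under 0.05 (background 9.06% and 6.26%). Irf4, a factor needed for Th17 differentiation, stood at 0.03 and -0.10 in RORγt deficiency and at 0.06 and -0.20 with digoxin. Batf, its partner, stood at -0.02 and 0.07. The lowest value of the list was that of Fosl2, an AP-1 subunit gene, by 1 probe set, at -0.56 ± 0.16 and -0.63 ± 0.16, while its other probe set stood at 0.17 and 0.28. Id2, an inhibitor of E proteins, ranged from -0.09 to 0.15 in RORγt deficiency and from -0.44 to -0.18 with digoxin over 3 probe sets.

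Of genes that c-Maf is known to activate in T cells, the cytokine gene Il21 stood at 0.34 ± 0.15 and -0.16 ± 0.13 in RORγt deficiency by its 2 probe sets. Il4, whose probe set lay in the dimmest range, stood at 0.09 ± 0.12. With digoxin in wildtype cells the Il21 probe sets stood at 0.15 and 0.06, in the same order, and Il4 at -0.10. None of these 3 probe sets was called in either comparison (background 0.611% and 0.0622%). Co-receptors known on IL-10 producing T cells had medians of 0.11 and 0.07 over 12 probe sets. Of these, 0 were called by limma (background 0.611% and 0.0622%), and 3 and 2 had an unadjusted p under 0.05 (background 9.06% and 6.26%). Pdcd1, which encodes the inhibitory receptor PD-1, stood at 0.50 ± 0.13 and 0.23 ± 0.13. Lag3, an inhibitory receptor of that group, stood at 0.34 ± 0.11 and 0.13 ± 0.11, and Ctla4, another, at -0.17 ± 0.10 and -0.26 ± 0.10. Il20 and Il24, cytokine genes of the IL-10 family that lie in the same chromosomal cluster as Il10, stood at 0.10 ± 0.15 and 0.30 ± 0.11 in RORγt deficiency and at 0.22 ± 0.15 and 0.09 ± 0.11 with digoxin, all uncalled.

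**Figure D3:**
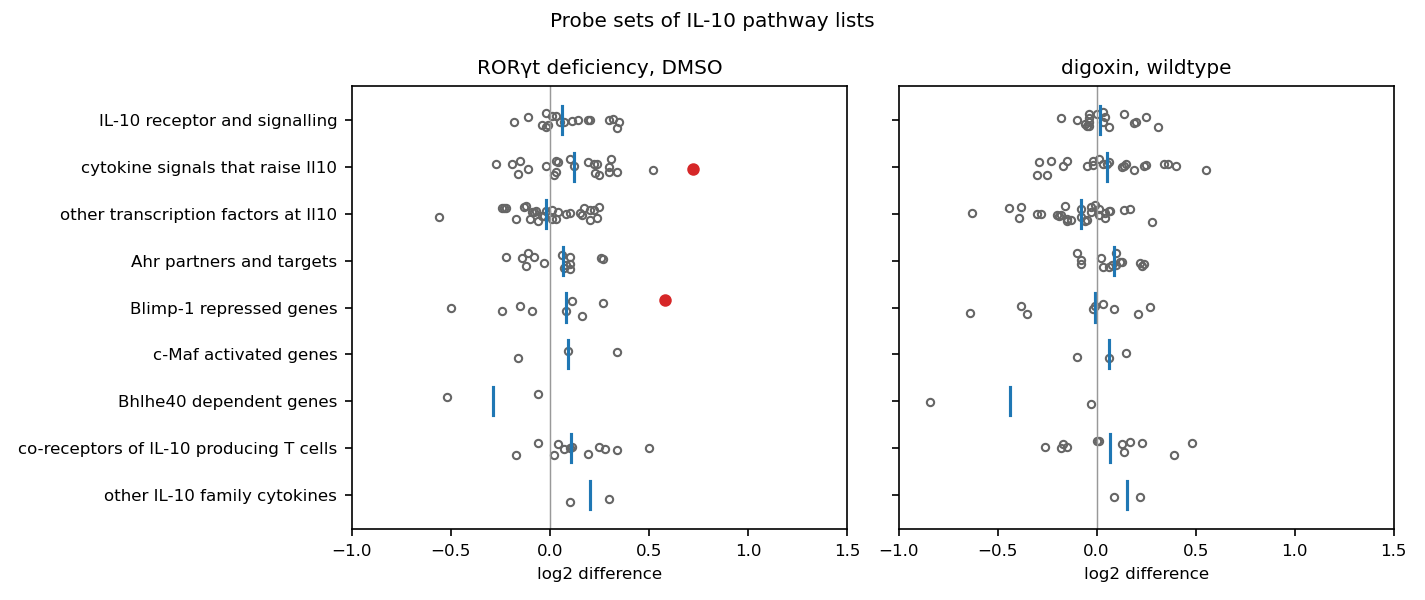
Log2 differences (horizontal axis) of the probe sets in 9 gene lists on Il10 and its regulators (vertical axis) for RORγt deficiency in DMSO (left) and digoxin in wildtype cells (right). Open circles were not called, filled red circles were called, and blue bars are list medians. The 2 called probe sets are those of Il12rb2 and Ccr7 in RORγt deficiency, and list medians run from -0.29 to 0.20 on the left and from -0.43 to 0.15 on the right.

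Marker genes of other cells that can make IL-10 were read on the same arrays. The mean of the T cell markers moved in the same direction as Il10. Over their 7 probe sets it was -0.10 and 0.10 with DMSO and 0.20 and 0.16 with digoxin in wildtype cells, and 0.28 and 0.25 with DMSO and 0.29 and 0.25 with digoxin in RORγt-deficient cells. Single probe sets of these markers moved by 0.12 to 0.43 in RORγt deficiency and by -0.05 to 0.43 with digoxin in wildtype cells. The part of T cell markers in the Il10 difference was not tested. The B cell mean (5 probe sets of 4 of 5 listed genes) ran from -0.06 to 0.06 in wildtype DMSO and from 0.01 to 0.19 elsewhere, and the myeloid mean (8 probe sets of 6 genes) from -0.02 to 0.02 and from 0.00 to 0.25. Single B cell probe sets moved by 0.00 to 0.26 in RORγt deficiency and by -0.15 to 0.48 with digoxin in wildtype cells. For single myeloid probe sets the ranges were -0.08 to 0.22 and -0.11 to 0.36. Regulatory T cell markers (Foxp3, Ikzf2 and Nrp1, 8 probe sets) ran from -0.02 to 0.02 in wildtype DMSO, at 0.02 and 0.01 in wildtype digoxin and from 0.12 to 0.15 in the RORγt-deficient groups. Foxp3, which defines these cells, stood at 0.08 ± 0.16 in RORγt deficiency and 0.00 ± 0.16 with digoxin in wildtype cells. Its probe set lay in the dimmest range, so a steady value says little about these cells. Nrp1, a semaphorin receptor gene, had 1 probe set at 0.66 ± 0.14 (limma adjusted p = 0.082) and -0.10 ± 0.14, another at 0.37 ± 0.12 and 0.42 ± 0.12, and its other 2 between -0.22 and 0.05. The mean of NK and CD8 cell markers (9 probe sets of Ncr1, Eomes, Cd8a and Cd8b1) was 0.07 and -0.07 in wildtype DMSO and ran from 0.03 to 0.19 elsewhere. Within it Eomes, a transcription factor gene of cytotoxic cells, stood at 0.24 ± 0.13 and 0.40 ± 0.13 by 1 probe set and at -0.04 and 0.15 by the other. Both Eomes probe sets lay in the dimmest range. The mean of mast cell and basophil markers (5 probe sets of 4 genes) ran from -0.01 to 0.12 over the 8 arrays. Over the 42 probe sets of all 6 marker lists limma called 0 in either comparison (background 0.611% and 0.0622%), with 5 and 7 at an unadjusted p under 0.05 (background 9.06% and 6.26%).

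Probe sets with 1 gene symbol were ranked by their root mean square difference from Il10 over the 8 arrays, leaving out symbols that are clone, locus or predicted-gene names. The genes nearest to Il10 were taken from these 32171 probe sets, where the median was 1.22. They were Klrd1 (0.13), which encodes the lectin-like receptor CD94, Gpm6b (0.24), a membrane glycoprotein gene, Ifitm1 (0.29), an interferon-induced membrane protein gene, Klrk1 (0.30), which encodes the receptor NKG2D, and Stom (0.30), which encodes the membrane protein stomatin. Klrd1 read 1.36 on both wildtype digoxin arrays, and in RORγt-deficient cells 1.46 and 1.29 with DMSO and 1.58 and 1.63 with digoxin. Gpm6b and Stom had further probe sets that lay farther away, up to 1.03 and 1.16. All probe sets are at 0 on average in wildtype DMSO by construction, so this measure reads mainly the other 6 arrays.

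By the same measure, the nearest regulator probe set was one of Maf. That probe set, 1447849_s_at, lay at 0.52, in place 27 among the 32171 ranked probe sets. The other Maf probe sets lay between 0.81 and 1.04, in places 167 to 2468, and Ahr 1450695_at was in place 600. Maf has 6 probe sets and so more chances to lie near. The measure uses the Il10 values that led to the choice of the set, so nothing is read from these places. The Ahr probe sets lay at 0.94 and 1.23, Prdm1 at 1.14, Bhlhe40 at 1.30 and Nfil3 at 1.32, on both sides of the median of the ranked probe sets.

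**Figure D4:**
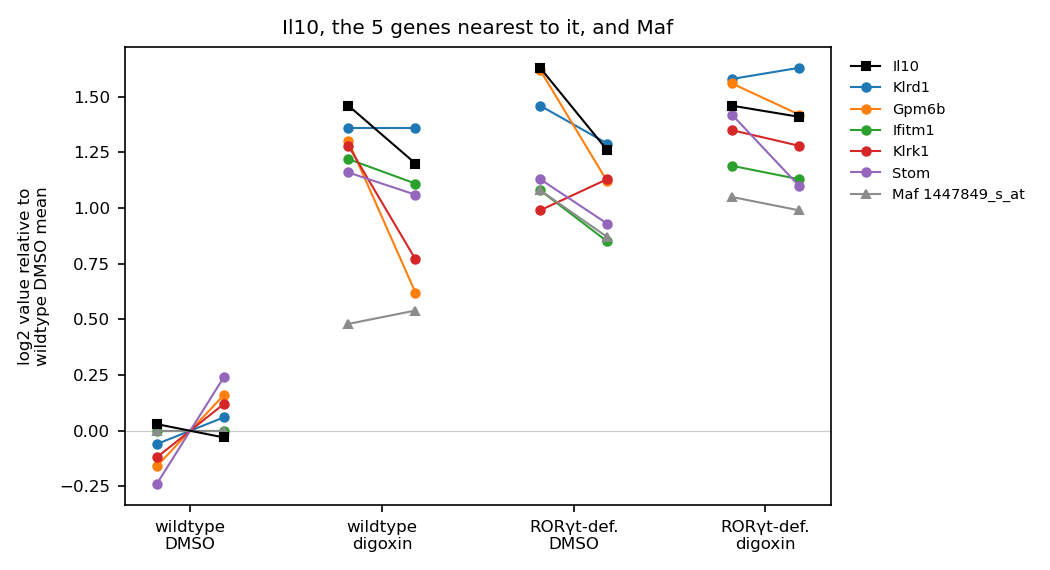
Log2 values relative to the wildtype DMSO mean (vertical axis) of Il10, the 5 nearest genes and 1 Maf probe set by group (horizontal axis); in each group the left point is array 1 and the right point array 2, joined only to guide the eye. In wildtype digoxin Maf sits at 0.48 and 0.54 while Il10 sits at 1.46 and 1.20.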

How the data were processed

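RNA of 8 samples of CD4 T cells was hybridised to Affymetrix Mouse Genome 430 2.0 arrays. The summary method was RMA per the submitters' processing notes, and the series' design text names GeneSpring GX 11.5. The authors deposited 1 log2 value per array for each of 45101 probe sets (64 controls). In these, both wildtype DMSO arrays sum to 0 within 1.00e-06, so each value is relative to their mean; no label records that step, and base 2 rests on RMA. Depth has no counterpart here: the number of arrays limits the precision.

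All 45037 other probe sets were fitted with limma 3.58.1 in R 4.3.3: 4 group means over 8 arrays, 4 residual and 5.82 prior degrees of freedom, eBayes, two-sided tests, Benjamini-Hochberg within each of 5 contrasts. The fit was tested on simulated data. Symbols came from the platform annotation (34945 probe sets with 1 symbol; the 932 with several were not named, and 0 of those list a member), updated through RefSeq identifiers of GRCm38.p6. No genome build is named for the files.

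The level before centring was read as a range (2 to 4, 4 to 8, 8 or above) from the binary step of the deposited numbers. The members and lists were chosen with earlier results of these data known. Named genes were the 6 members, called list members (at most 4 a list), the listed neighbours of Il10 and the 5 genes nearest to it; further list members are named as examples chosen after their values were seen. Alternatives were 1 probe set per gene, no low-signal probe sets, quantile normalisation, only the compared groups, array weights, a robust prior, replicate blocks and leaving out each array. Quantile normalisation was run on the values already centred on wildtype DMSO, so it does not show what normalising uncentred levels would give. Background correction could not be varied, because only summarised values were used.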

Additional observations from a re-analysis of the deposited data

How the results depend on the processing

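Counts of called probe sets rested on few arrays. For RORγt deficiency in DMSO the count of 275 ranged from 21 to 318 when each array was left out in turn, and was 5 after quantile normalisation and 81 with only the compared groups. For digoxin in wildtype cells the count of 28 ranged from 3 to 25 without each array, and was 5 after quantile normalisation and 15 with only the compared groups. The count of 1 for digoxin in RORγt-deficient cells ranged from 0 to 1 without each array and was 0 after quantile normalisation. The count of 1 for RORγt deficiency under digoxin ranged from 0 to 1, and was 0 after quantile normalisation and 0 with only the compared groups. The count of 0 for the difference of digoxin effects ranged from 0 to 1. The cause of these changes in count was not tested.

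The Il10 difference stayed between 1.16 and 1.63 for RORγt deficiency and between 1.20 and 1.46 for digoxin in wildtype cells over 16 alternatives. The Maf difference by 1447849_s_at in RORγt deficiency stayed between 0.84 and 1.08 over 15 and was called in 11 of them. After quantile normalisation it was 0.84 (limma adjusted p = 0.17). Maf 1444073_at, at 0.62, was called without low-signal probe sets (adjusted p = 0.0386), with array weights (0.0374) and with the crossed block (0.0135), over a range of adjusted p up to 0.621, and 1435828_at only with the crossed block (0.0441, range up to 1). Ahr, Prdm1, Nfil3 and Bhlhe40 were not called under any alternative run. Prdm1 could not be tested without low-signal probe sets, since that removes it.

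Replicate numbers are not said to mark shared animals or days, and only 2 numbers exist. Deviations of wildtype DMSO ran against those of the other groups (r from -0.238 to -0.134 across probe sets, which are not independent), while the other groups ran together (0.304 to 0.456). The replicate block gave 308 calls for RORγt deficiency, 36 for digoxin in wildtype cells, 1 and 1 for the other single contrasts and 0 for the difference. A crossed replicate block, chosen after seeing the data, gave 623 and 94.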
